A study of Homo sapiens with 12 samples.

Results

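Teneurins (TENM1 to TENM4), latrophilins (ADGRL1 to ADGRL3) and the ADGRB receptors (ADGRB1 to ADGRB3, also called BAI proteins) are 3 families of cell surface proteins, described here by their transcripts. The 10 genes were found by symbol among 26535 features of the deposited tables. They were selected on values measured in these libraries, namely the levels in the 4 groups and the VGF effect in each line seen in earlier results, so every value and adjusted p given for them is a description and not independent evidence. RNA-seq libraries came from A549 and H1299, established non-small-cell lung cancer cell lines that the labels call wild type. Each line carried either a lentivirus with VGF, a secreted neuroendocrine precursor protein, or an empty vector, and each of the 4 groups held 3 libraries that the design text calls biologically independent. A549 was grown in DMEM/F12 and H1299 in RPMI-1640, both with serum and antibiotics, so the line and its medium cannot be told apart. A time after infection, a clone or a selection step is not given in the sources used here. The free-text treatment note names the empty vector for every library, while titles and treatment labels gave the groups used here.

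Latrophilins and ADGRB receptors are adhesion G protein-coupled receptors, with a long extracellular part that is usually cleaved from the membrane-spanning part within a GAIN domain. Teneurins are large single-pass proteins whose extracellular ends bind latrophilins on a facing cell, and latrophilins also bind FLRT proteins, which in turn bind UNC5 receptors. ADGRB3 binds secreted C1QL proteins, and ADGRB1 is known for engulfment of apoptotic cells through ELMO, DOCK1 and RAC1. These families are best known from synapse formation and axon guidance in brain, and this background says nothing of their role in lung cancer cells.

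The sequences before the transcription starts of ADGRB3 and TENM2 are shown because these 2 genes carry the lower values with VGF in A549 described below. Windows of 250 bases before each start were taken from RefSeq (GRCh38.p14), 5′ to 3′ on the gene's strand, with CG dinucleotides in capitals. Of the 10 genes, 8 matched 19 windows, and ADGRB1 and ADGRL1 did not. Over 35116 windows of this length the median was 11 CG dinucleotides and 58.0% G or C. The ADGRB3 window (chr6:68635032-68635281, plus strand) held 46 CG dinucleotides at 79.2% G or C, and 99.59% of all windows held fewer. It overlapped an exon of AL391807.1 in GENCODE release 29.
ADGRB3: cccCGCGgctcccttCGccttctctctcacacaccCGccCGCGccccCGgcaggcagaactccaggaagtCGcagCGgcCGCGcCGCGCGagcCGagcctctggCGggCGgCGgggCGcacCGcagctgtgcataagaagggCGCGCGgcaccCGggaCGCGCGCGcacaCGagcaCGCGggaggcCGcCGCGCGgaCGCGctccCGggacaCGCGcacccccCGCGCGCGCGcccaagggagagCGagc
Neither TENM2 window lay at the GENCODE start of the gene (167284799). The first TENM2 window (chr5:167072992-167073241, plus strand) lay outside any GENCODE gene and held 1 CG dinucleotide at 29.2% G or C.
TENM2 first window: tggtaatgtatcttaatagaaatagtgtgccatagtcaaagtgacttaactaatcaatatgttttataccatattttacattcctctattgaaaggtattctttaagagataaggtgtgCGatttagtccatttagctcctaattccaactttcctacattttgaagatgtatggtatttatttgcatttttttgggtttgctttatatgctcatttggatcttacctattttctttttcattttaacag
The second TENM2 window (chr5:167754679-167754928, plus strand) lay in an intron of TENM2 and held 4 CG dinucleotides at 46.4% G or C.
TENM2 second window: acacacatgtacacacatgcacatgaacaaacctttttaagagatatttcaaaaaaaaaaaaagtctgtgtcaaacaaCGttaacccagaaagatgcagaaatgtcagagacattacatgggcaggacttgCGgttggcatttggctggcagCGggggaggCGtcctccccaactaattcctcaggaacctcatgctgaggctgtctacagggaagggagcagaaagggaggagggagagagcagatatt
ADGRB3 and TENM2 thus had unlike windows, one CG-rich and the others CG-poor. The GC box GGGCGG, searched on both strands like every motif here, was found 2 times before ADGRB3 and in neither TENM2 window, and 42.64% of all windows held it. The TATA box TATAAA was found 2 times in the first TENM2 window, both times on the opposite strand (TTTATA as printed), and 10.72% of all windows held it. The letters CACGTG (6.345% of windows), TGACGTCA (1.646%), CCAAT (32.01%), TGANTCA (6.573%) and the core of the RE1 element (0.01424%) were in none of the 3 windows. Whether any factor was bound there was not measured, and the start used by these cells is not known from these data.

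Library totals ran from 31378171 to 41919484 counts. VGF rose in A549 from 2.43 ± 0.373 to 1283 ± 80.3 CPM (counts scaled to library size; mean ± SD, n = 3) and in H1299 from 85.6 ± 7.26 to 980 ± 119 CPM, and every VGF library was above every control of its line. KRT8 and KRT18, keratins of simple epithelia, were high throughout, at 18157 to 147299 counts. EPCAM (0 to 36 counts), NKX2-1 (0 to 16) and SFTPB (0 to 2), other epithelial and lung markers, were at or near 0. One library stood apart. In A549 with VGF library 2, 13 endothelial markers summed to 540.7 CPM, against 76.7 to 93.7 CPM in the other A549 libraries and 24.6 to 30.9 CPM in H1299. All 13 of these markers had counts in at least 1 library of that group, while TEK, ERG and EMCN were at 0 in A549 with empty vector. The endothelial sum in A549 with empty vector rested mostly on EGFL7 (50.6 CPM) and ESAM (30.3). PECAM1, the highest of the other markers there, held 1.015 CPM. With VGF it had 38, 3305 and 42 counts in A549 libraries 1, 2 and 3. Results that rest on A549 VGF library 2 are given with and without it, except the distances between genes, which use all 12 libraries. Summed neuronal (256.6 to 321.9 CPM), glial (34.1 to 36.6 CPM in H1299, 93.0 to 97.5 in A549), fibroblast (1.51 to 2.29 and 23.6 to 29.2 CPM) and leukocyte markers (0.354 to 1.2 and 16.1 to 20.1 CPM) showed no such library. In A549 with empty vector these sums rested mostly on TUBB3 (175.5 CPM), MBP (93.3), COL1A1 (23.0) and CD14 (19.0). A small addition from other cells would not show in them.

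Of the 10 genes, 8 passed the filter on low counts. TENM1 and ADGRL3 did not, and are given as counts. A gene was called at an adjusted p under 0.05 in edgeR's quasi-likelihood test over 18228 features, and every adjusted p below is from that test unless another tool is named. With VGF in A549, TENM2 and ADGRB3 were called lower and ADGRL2 was called higher, 3 of 8 tested genes, where 0.790% of all features were called (0.406% higher and 0.384% lower). For the difference of the VGF effects between the lines, TENM2 and ADGRB3 were called, 2 of 8, where 0.159% of all features were called. In H1299 none of the 8 was called, where 0.0110% of all features were called. In A549 the CPM ranges of the VGF and control libraries did not overlap for 6 of the 8 genes, against 18.4% of all tested features, and in H1299 for 2 of 8, against 12.7%. The genes were chosen with these contrasts known, so nothing is read from these shares. The median log2 fold change of the 8 genes was -0.21 in A549 and -0.03 in H1299, beside medians of 0.00 and -0.01 over all features, and the A549 median is the same with TENM2 at its bound. In whole-culture RNA, fewer expressing cells and less RNA per cell cannot be told apart.

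**Figure D1:**
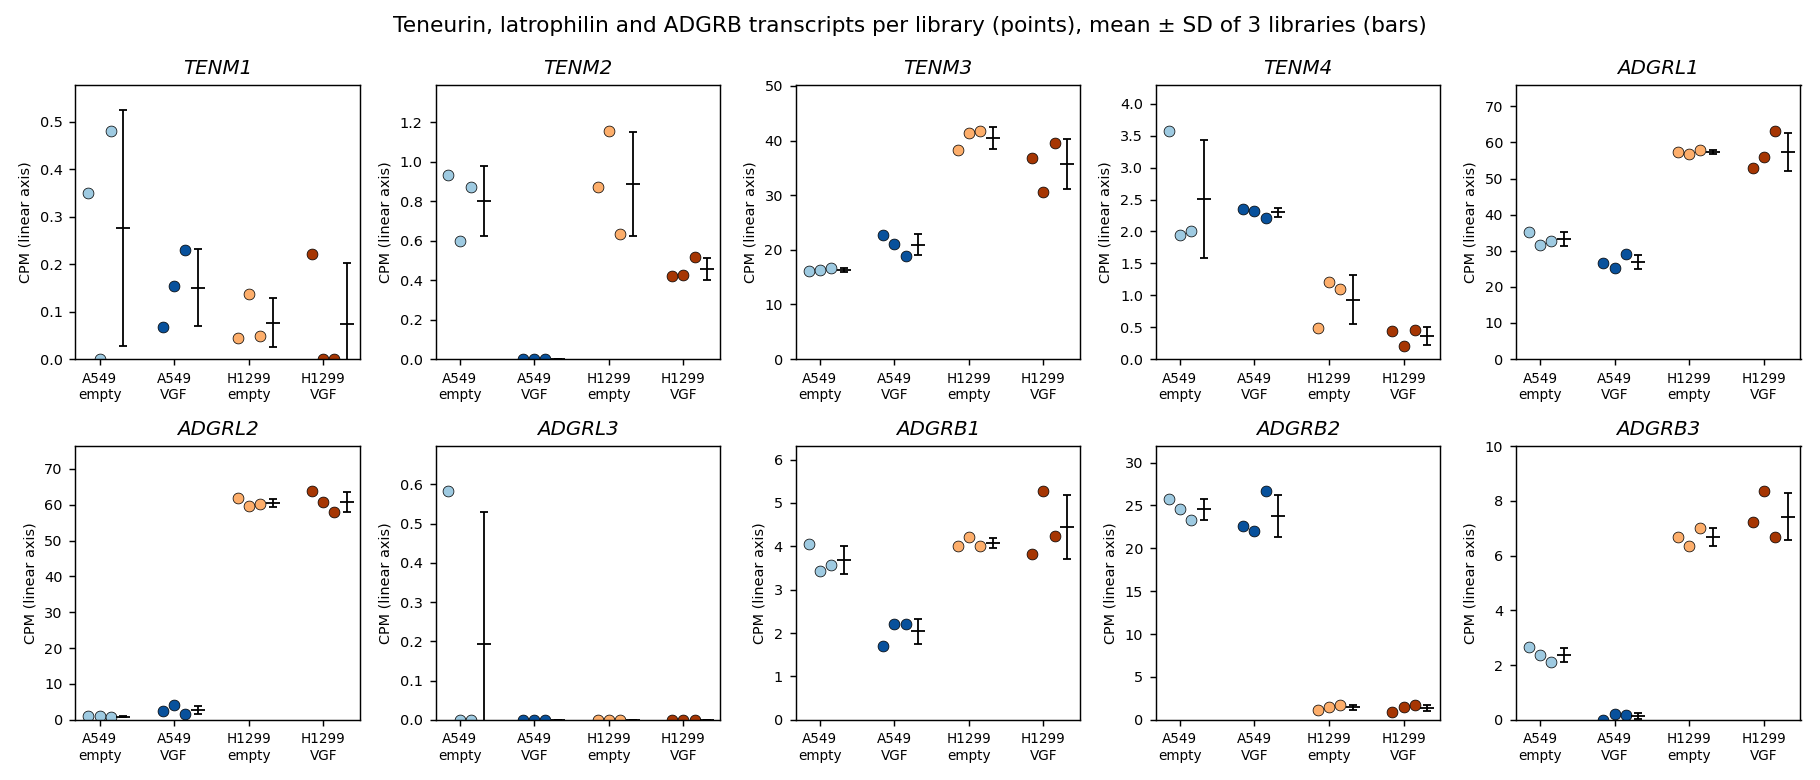
CPM of each of the 10 genes in each library (points, linear axis, a scale of its own per gene) in A549 and H1299 with empty vector or VGF, with mean ± SD of 3 libraries as bars. TENM2 is at 0 and ADGRB3 between 0 and 0.204 CPM in A549 with VGF, while ADGRL2 stands near 60 CPM in H1299 and under 4 CPM in A549.

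Among the teneurins, TENM2 (ENSG00000145934, chromosome 5, 167284799 to 168264157, plus strand), a latrophilin ligand also known as Lasso, was the one called in a VGF contrast. It had 32, 20 and 29 counts in the A549 libraries with empty vector and 0, 0 and 0 with VGF. H1299 held 39, 51 and 26 counts with empty vector and 17, 17 and 22 with VGF. The A549 groups and the H1299 groups each did not overlap, and both VGF groups were the lower ones. In A549 the level fell from 0.800 ± 0.178 CPM to 0 (adjusted p = 0.00230). Set against a floor of 3 counts over the 3 libraries, 0.0291 CPM, it was at least 27.5-fold lower. The floor covers counting error of the VGF libraries only. In H1299 the means were 0.886 ± 0.263 and 0.455 ± 0.0556 CPM, a log2 fold change of -0.96 (SE 0.444) that was not called (adjusted p = 0.644). The difference between the effects in the 2 lines was called (adjusted p = 0.0288). That call was lost in 11 of the 12 fits that left out 1 library, with adjusted p up to 0.0729, and held only without A549 empty vector library 2 (0.0434). The A549 call held in all 12 of these fits (adjusted p 0.00440 to 0.0107) but not on log2 FPKM with limma, at a pseudocount of 1 (0.317) or 0.1 (0.0897). The A549 control mean was 0.0760 FPKM, below both pseudocounts, which shrink even a fall to 0 (log2 fold change -0.106 and -0.809). Those 2 fits therefore cannot decide whether the call holds. TENM2 was a gene of few reads, 253 counts over all 12 libraries.

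TENM3 (ENSG00000218336, chromosome 4, 182143987 to 182803024, plus strand), known for wiring in visual and hippocampal circuits, was the most abundant teneurin in every group. Its counts in A549 were 551, 544 and 552 with empty vector and 665, 825 and 658 with VGF. In H1299 they were 1714, 1825 and 1720 with empty vector and 1492, 1222 and 1681 with VGF. All VGF libraries of A549 lay above the controls on the CPM scale, and the H1299 groups overlapped. The A549 means were 16.3 ± 0.284 and 20.9 ± 1.91 CPM, a log2 fold change of 0.36 (SE 0.0972) that missed the threshold (adjusted p = 0.119) and was called by DESeq2 (0.0275). In H1299 the means were 40.5 ± 1.97 and 35.7 ± 4.59 CPM (log2 fold change -0.18, adjusted p = 0.679). The signs differed between the lines, and the difference of -0.54 was not called (adjusted p = 0.179; DESeq2 0.0246).

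TENM4 (ENSG00000149256, chromosome 11, 78652831 to 79440948, minus strand), a teneurin of myelinating glia among other cells, held 123, 65 and 67 counts in A549 with empty vector and 69, 91 and 77 with VGF. In H1299 it held 22, 53 and 45 counts with empty vector and 18, 8 and 19 with VGF. The A549 groups overlapped, and each H1299 VGF library lay below each H1299 control in CPM. The H1299 means of 0.929 ± 0.384 and 0.364 ± 0.142 CPM gave a log2 fold change of -1.34 (SE 0.427), which was not called (adjusted p = 0.475). TENM1 (ENSG00000009694, chromosome X, 124375903 to 124963817, minus strand) had 0 to 16 counts in any library and 63 in all. No order between its groups can be read at that depth, since the ranges of all 4 overlapped.

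Among the latrophilins, ADGRL1 (ENSG00000072071, chromosome 19, 14147743 to 14206187, minus strand), the α-latrotoxin receptor that binds TENM2, was abundant in both lines. Its counts in A549 were 1212, 1055 and 1085 with empty vector and 775, 992 and 1009 with VGF. In H1299 they were 2576, 2505 and 2380 with empty vector and 2151, 2233 and 2684 with VGF. The A549 groups did not overlap in CPM, at 33.1 ± 1.94 and 27.0 ± 1.89. That log2 fold change of -0.30 (SE 0.0754) missed the threshold (adjusted p = 0.0979) and was called by DESeq2 (0.0262). The H1299 means, 57.4 ± 0.519 and 57.4 ± 5.29 CPM, were the same to 3 digits. An exon of AC022098.1 on the opposite strand covers 5.57% of the exon bases of ADGRL1, and whether counting used strand is not given in the sources used here.

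ADGRL2 (ENSG00000117114, chromosome 1, 81306160 to 81992436, plus strand), a latrophilin found in many tissues outside the brain, held 36, 31 and 25 counts in A549 with empty vector and 74, 156 and 58 with VGF. H1299 held 2776, 2624 and 2473 counts with empty vector and 2587, 2421 and 2462 with VGF. Each A549 VGF library was above each A549 control, and library 2 was the highest. In A549 ADGRL2 rose from 0.908 ± 0.149 to 2.73 ± 1.17 CPM, a 3.03-fold change (log2 1.60, SE 0.274, adjusted p = 0.0222). The highest value belongs to the library with the endothelial markers, in which ADGRL4, an adhesion receptor of endothelium, had 910 counts against 0 to 11 in every other library. CDKN2A, deleted in A549 and at 5158 to 7075 counts in H1299, had 51 counts in that library too, 0 in the other 2 VGF libraries of A549, and 11, 0 and 0 with empty vector. Without that library the log2 fold change was 1.19 and still called (adjusted p = 0.0202). The call was lost without A549 empty vector library 1 (adjusted p = 0.0728), 2 (0.0757) or 3 (0.0734), with limma voom (0.0707), on log2 FPKM (0.0568 and 0.173) and with A549 fitted alone (0.0853). The A549 control mean of ADGRL2, 0.125 FPKM, is close to the pseudocount of 0.1 and below that of 1. Both shrink the change on log2 FPKM (1.03 and 0.287). In H1299, with 60.5 ± 1.23 and 60.8 ± 2.84 CPM, the log2 fold change was 0.01 (adjusted p = 1). The difference between the lines, -1.59 (SE 0.314), missed the threshold (adjusted p = 0.0799) and was called by DESeq2 (2.29e-05) and without A549 VGF library 3 (-1.86, adjusted p = 0.0171). Without A549 VGF library 2, the one with the endothelial markers, it was -1.17 (adjusted p = 0.0510).

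ADGRL3 (ENSG00000150471, chromosome 4, 61201258 to 62078335, plus strand), a latrophilin linked to attention deficit hyperactivity disorder, had 20 counts in A549 empty vector library 1 and 0 in each of the other 11 libraries. The floor of 3 counts over 3 libraries stood at 0.0291 CPM in A549 with VGF, 0.0231 in H1299 with empty vector and 0.0244 in H1299 with VGF. It covers counting error only and not the spread between libraries, so it does not limit the level of ADGRL3.

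Among the ADGRB receptors, ADGRB3 (ENSG00000135298, chromosome 6, 68635367 to 69389511, plus strand), the receptor of C1QL proteins at synapses, kept its A549 call under all 23 alternative settings. It held 91, 79 and 70 counts in A549 with empty vector and 0, 8 and 6 with VGF. In H1299 it held 300, 280 and 289 counts with empty vector and 294, 333 and 284 with VGF. The A549 groups were far apart, and the H1299 groups overlapped. In A549 ADGRB3 fell from 2.37 ± 0.272 to 0.126 ± 0.110 CPM, an 18.9-fold difference of means (log2 fold change -4.12, SE 0.449, adjusted p = 0.00103). In H1299 the means were 6.69 ± 0.337 and 7.43 ± 0.844 CPM (log2 fold change 0.15, SE 0.323, adjusted p = 1). The difference between the lines was 4.27 (SE 0.558, adjusted p = 0.0125). The A549 call held in each of 12 fits without 1 library (log2 fold change -4.63 to -3.63, adjusted p 0.000119 to 0.00695). The call on the difference held in those 12 fits too (adjusted p up to 0.0459) and in 8 of 10 other settings. It was lost on log2(FPKM + 1) with limma (0.0823), where the pseudocount shrinks a fall from 0.359 FPKM. In edgeR with a block for the replicate number it was lost too (0.0634). The value without A549 VGF library 2, the one with the endothelial markers, lies within these ranges.

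ADGRB1 (ENSG00000181790, chromosome 8, 142449430 to 142545009, plus strand), the engulfment receptor, held 139, 115 and 119 counts in A549 with empty vector and 50, 86 and 77 with VGF. In H1299 it held 180, 186 and 165 counts with empty vector and 155, 210 and 180 with VGF. The A549 ranges did not overlap, and the H1299 ranges did. The A549 means were 3.69 ± 0.320 and 2.04 ± 0.287 CPM, a log2 fold change of -0.85 (SE 0.199) that missed the threshold (adjusted p = 0.0763) and was called by DESeq2 (0.00872). In H1299 the log2 fold change was 0.12 (adjusted p = 0.996), and the difference of 0.97 was not called (adjusted p = 0.247).

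ADGRB2 (ENSG00000121753, chromosome 1, 31727117 to 31764893, minus strand), a brain-enriched receptor of the same family, held 884, 824 and 774 counts in A549 with empty vector and 662, 864 and 926 with VGF. In H1299 it held 49, 64 and 73 counts with empty vector and 38, 59 and 72 with VGF. VGF and control libraries overlapped in both lines, with log2 fold changes of -0.04 (SE 0.174, adjusted p = 0.981) in A549 and -0.06 (SE 0.219, adjusted p = 1) in H1299. The sign in A549 was positive on log2 FPKM, at 0.0928 and 0.109. Counts per FPKM, divided by the library total in megacounts, ran from 4.37 to 5.96 between libraries for ADGRB2, so the 2 deposited scales are not a fixed multiple of each other for this gene. The cause was not tested.

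**Figure D2:**
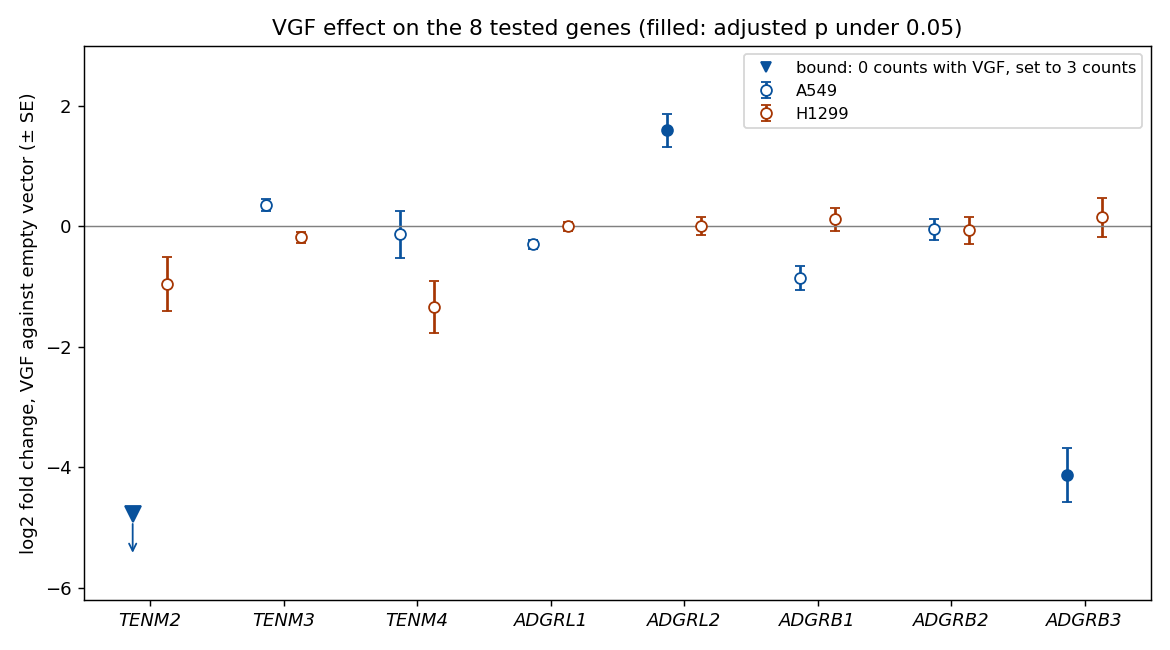
Log2 fold change of VGF against empty vector (edgeR) for the 8 tested genes in A549 and H1299, with filled symbols for an adjusted p under 0.05. Bars are ± SE, here the absolute log2 fold change divided by the square root of the F statistic. The triangle is the bound for TENM2 in A549, where the VGF libraries held 0 counts, set to 3 counts over the group. ADGRB3 stands at -4.12 and ADGRL2 at 1.60 in A549, and no H1299 symbol is filled.

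**Figure D3:**
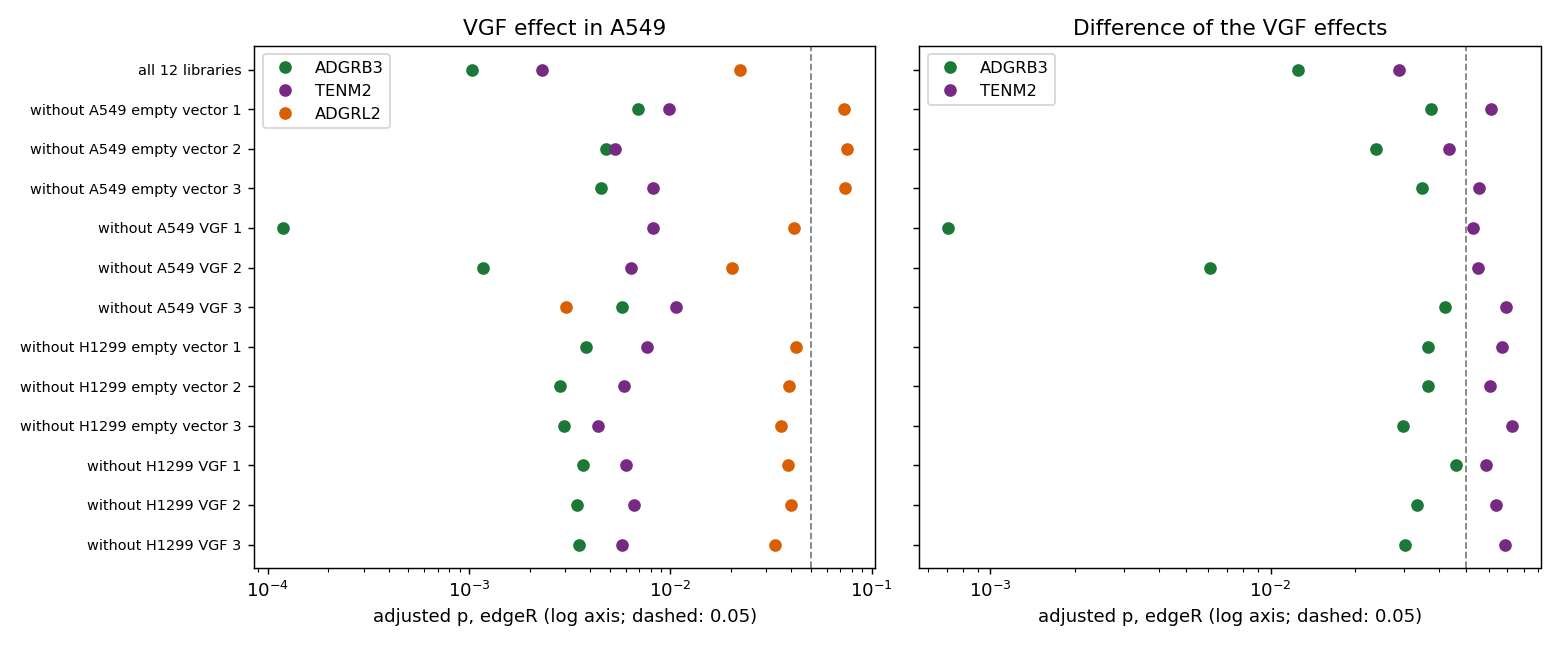
Adjusted p from edgeR (log axis) with all 12 libraries and without each library in turn, for the 3 genes called in A549 (left) and the 2 called for the difference between lines (right), with the threshold of 0.05 dashed. ADGRB3 stays left of the line in both panels, ADGRL2 passes it without any 1 of the 3 A549 control libraries, and TENM2 passes it in the right panel in 11 of 12 fits.

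Compared with the VGF contrasts, the lines themselves stood far apart. Between the empty vector groups 6 of the 8 tested genes were called, 4 higher and 2 lower in H1299, where 77.2% of all features were called (38.5% higher and 38.6% lower), so the share is near the background. The CPM ranges did not overlap for 6 of 8, against 81.0% of all features. The median of the 8 log2 differences was 0.47, beside 0.01 over all features. ADGRL2 was 66.3-fold higher in H1299 (log2 6.05, SE 0.223, adjusted p = 4.19e-11). ADGRB2 was 17.05-fold lower in H1299 (log2 -4.09, SE 0.208, adjusted p = 1.01e-09). TENM3 (log2 1.31, adjusted p = 3.97e-08) and ADGRL1 (0.79, 4.38e-07) were higher in H1299, as was ADGRB3 (2.82-fold, SE of log2 0.336, adjusted p = 0.00125), and TENM4 (-1.43, 0.00550) was lower. TENM2 (log2 0.15, SE 0.436, adjusted p = 0.768) and ADGRB1 (0.15, SE 0.194, adjusted p = 0.502) were not called, which does not show equal levels.

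Levels of different genes are compared per length, in deposited FPKM. In A549 with empty vector ADGRL1 (4.41 ± 0.234 FPKM) and ADGRB2 (4.39 ± 0.241) led with overlapping ranges, followed by TENM3 (1.39 ± 0.0590), ADGRB1 (0.517 ± 0.0461) and ADGRB3 (0.359 ± 0.0449). TENM4 (0.157 ± 0.0576) and ADGRL2 (0.125 ± 0.0187) overlapped below these, and TENM2 stood at 0.0760 ± 0.0213. In H1299 with empty vector the order was ADGRL2 (11.2 ± 0.461 FPKM), ADGRL1 (9.32 ± 0.586), TENM3 (4.11 ± 0.132), ADGRB3 (1.13 ± 0.0658), ADGRB1 (0.660 ± 0.0136) and ADGRB2 (0.265 ± 0.0651), with no overlap between neighbours. TENM2 (0.0939 ± 0.0279) and TENM4 (0.0667 ± 0.0285) followed with overlapping ranges, then TENM1. The leading pair was thus ADGRL1 with ADGRB2 in A549 and ADGRL1 with ADGRL2 in H1299. With VGF the A549 order had ADGRB2 (4.79 ± 0.838 FPKM) before ADGRL1 (3.60 ± 0.234) without overlap, and ADGRB3 stood below TENM4, at 0.0171 ± 0.0149 FPKM. ADGRB2 was not higher with VGF in CPM (24.5 ± 1.23 and 23.8 ± 2.49). Its counts per FPKM and megacount were 4.37 in A549 VGF libraries 1 and 3, against 5.10 to 5.30 with empty vector.

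**Figure D4:**
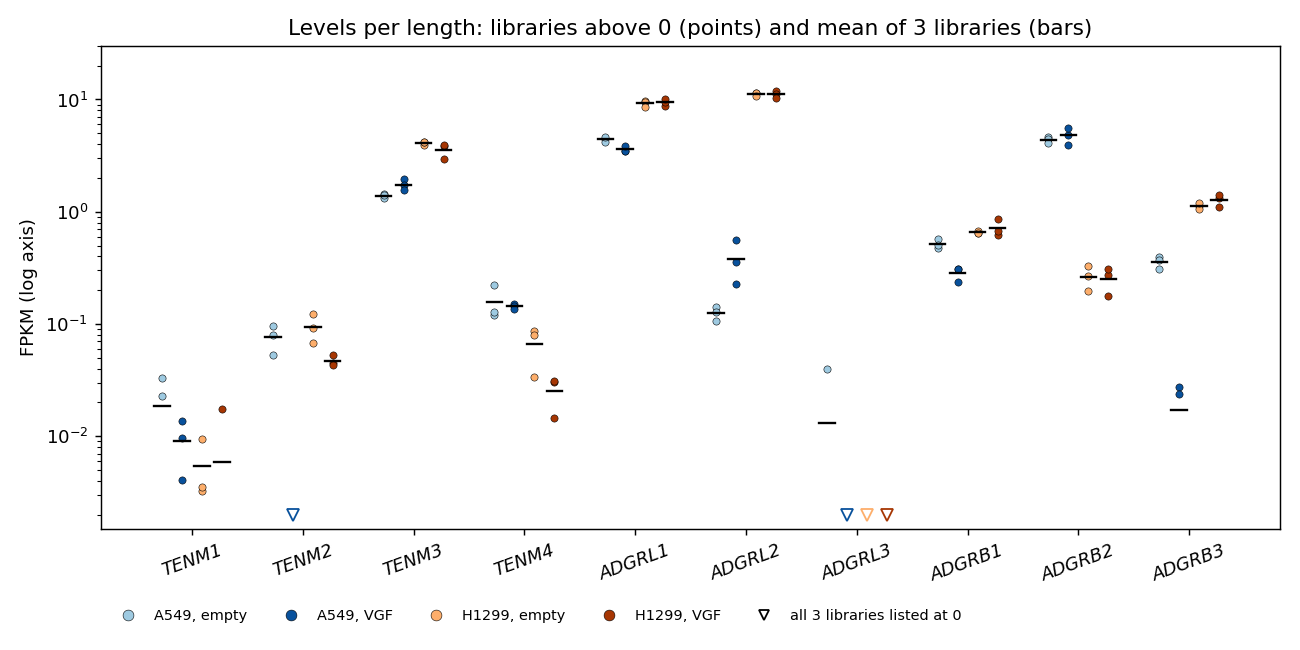
FPKM (log axis) of the 10 genes in the 4 groups, with libraries above 0 as points, the mean of 3 libraries as a bar, and a triangle where all 3 libraries are listed at 0. ADGRL1, ADGRB2 and TENM3 lead in A549, and ADGRL2, ADGRL1 and TENM3 lead in H1299.

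The ligands and partners of these receptors were read from lists of known binding partners and effectors, set up with earlier results of these data known. Of 16 teneurin and latrophilin partners, 13 were tested and none was called with VGF in either line (median log2 fold change 0.17 in A549 and -0.18 in H1299). Of 18 ADGRB partners, 17 were tested and none was called in either line (medians 0.01 and -0.09). Only 0.790% of all features were called with VGF in A549 and 0.0110% in H1299, so nothing is read from these absent calls. Between the lines 3 of the first 13 were higher and 7 lower in H1299, and of the 17 ADGRB partners 6 were higher and 8 lower, where 77.2% of all features were called (38.5% higher and 38.6% lower). FLRT3, a latrophilin ligand, ran opposite to ADGRL2 between the lines. It held 39.5 ± 4.09 CPM in A549 with empty vector, 35.6 ± 1.69 with VGF, 0.456 ± 0.188 in H1299 with empty vector and 0.781 ± 0.0254 with VGF. The log2 difference of H1299 from A549 was -6.41 (SE 0.187, adjusted p = 4.84e-12). FLRT2, a second ligand of the family, was lower in H1299 too, at 2.50 ± 0.826 against 0.164 ± 0.0894 CPM (log2 -3.92, adjusted p = 0.000184). UNC5C, a netrin receptor of the UNC5 family that FLRT proteins bind, was higher in H1299, at 0.130 ± 0.136 against 2.61 ± 0.293 CPM (log2 4.30, adjusted p = 0.000107). FLRT1, with 1.86 ± 0.502 and 1.48 ± 0.0469 CPM, was not called (adjusted p = 0.331).

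For the difference between the VGF effects, 1 of the 13 tested teneurin and latrophilin partners was called and 0 of the 17 ADGRB partners. Over all features 0.159% were called for it, and nothing is read from these shares. The called partner, the neurexin NRXN3, held 257, 277 and 263 counts in A549 with empty vector and 256, 395 and 304 with VGF. In H1299 it held 6, 6 and 3 counts with empty vector and 0, 0 and 0 with VGF. The call (adjusted p = 0.0182) rests on these 15 control counts against none, at least 4.68-fold lower against the floor. The H1299 effect alone was not called (adjusted p = 0.0593), and the call on the difference was lost without H1299 empty vector library 2 (0.0523), with limma voom (0.166) and on log2 FPKM (0.641 and 0.683). The H1299 control mean of NRXN3 was 0.0161 FPKM, below both pseudocounts, which shrink even a fall to 0. For ADGRB3, the C1QL ligands were present in both lines. C1QL1 held 13.8 ± 0.568 CPM in A549 and 8.28 ± 0.369 in H1299 with empty vector (log2 -0.74, adjusted p = 0.000592), and C1QL3 held 4.62 ± 1.08 and 1.71 ± 0.301 CPM (log2 -1.43, adjusted p = 8.67e-05). C1QL4 held 8.43 ± 0.867 and 7.67 ± 1.24 CPM (adjusted p = 0.433), and C1QL2 had no counts. None of these ligands was called with VGF in A549, where ADGRB3 fell, with adjusted p from 0.801 to 1.

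GNAI1, an inhibitory G protein subunit and the one gene called with VGF in A549 from a list of signalling genes not otherwise reported, fell from 73.8 ± 3.51 to 50.1 ± 4.19 CPM (log2 -0.56, SE 0.0716, adjusted p = 0.00333). In H1299 it held 43.5 ± 1.05 and 41.2 ± 3.31 CPM (adjusted p = 0.912), and the difference between lines was not called (adjusted p = 0.0945). The A549 call was lost on log2 FPKM with limma (0.123 and 0.152). Of 26 other adhesion receptors, 17 were tested and none was called with VGF in either line (medians -0.12 and -0.02). Over all features 0.790% were called with VGF in A549 and 0.0110% in H1299. Between the lines 2 of the 17 were higher and 12 lower in H1299 than in A549, where 38.5% and 38.6% of all features were called in these directions.

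The genes beside those called in A549 were examined after their values had been seen. MAT2B and WWC1, the nearest tested coding genes on either side of TENM2, had log2 fold changes of -0.01 (adjusted p = 1) and 0.31 (SE 0.0680, adjusted p = 0.0598). EYS and LMBRD1, on either side of ADGRB3, had -0.01 (adjusted p = 1) and 0.11 (adjusted p = 0.528). IFI44 and TTLL7, on either side of ADGRL2, had -0.03 (adjusted p = 1) and 0.13 (adjusted p = 0.736). None of the 6 neighbours was called, where 0.790% of all features were called. WWC1 lies 27.5 kb from TENM2, and the others lie 286 to 3765 kb away.

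For each family the gene with the highest mean FPKM in any group was taken (ADGRL1 was above ADGRL2 in A549, and ADGRB2 was the lowest ADGRB gene in H1299). The genes most like it were found by the root mean square distance of centred log2(CPM + 0.1) over the 12 libraries, among 13635 genes. TENM3 was nearest to GPRASP2 (distance 0.102), PLAGL1 (0.110) and STARD8 (0.116). ADGRL2 was nearest to GPR176 (0.204), TCEAL8 (0.267) and ZNF649 (0.331), and ADGRB2 to MGST1 (0.198), CXCL16 (0.206) and JAG1 (0.210). GPR176 held 1.03, 2.68, 51.1 and 52.8 CPM in A549 with empty vector, A549 with VGF, H1299 with empty vector and H1299 with VGF, in that order. TCEAL8 held 1.05, 2.58, 62.4 and 56.1 CPM. These distances describe 2 lines and 12 libraries, and carry no test. A549 VGF library 2, the one with the endothelial markers, is in the distances and the means, and neither is given without it.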

How the data were processed

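The authors deposited raw counts per feature and, for the same features, FPKM values scaled by length and library size, per the file headers. The submitters' processing notes name GRCh38 and DESeq2; the aligner, annotation and strand setting are not given in the sources used. Of 26535 features, 18228 passed filterByExpr by group; 18 stray lines were left out. One edgeR 4.0.16 quasi-likelihood fit (R 4.3.3, TMM, 4 group means, Benjamini-Hochberg adjustment) of 12 libraries gave all contrasts. CPM uses TMM-scaled totals. No 2 replicates agreed within sampling noise (chi-square per degree of freedom 7.82 to 21.8). Adjusted p-values measure the spread between libraries only. Each SE was derived from the test, as the absolute log2 fold change divided by the square root of the F statistic.

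The members and lists were chosen with earlier results of these data known. Named were the 10 genes, VGF, partners called in a VGF contrast, and FLRT, UNC5 and C1QL genes at 1 CPM or more in a group. Markers of endothelium, neurons, glia, fibroblasts and leukocytes were summed. Alternatives used limma 3.58.1, DESeq2 1.42.0, other scalings, filters and single libraries left out. Coordinates are from GENCODE release 29. The counts of 1 list of signalling genes are not reported here.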

Additional observations from a re-analysis of the deposited data

Results flagged for a closer look

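The test of the difference between the VGF effects (edgeR, H1299 minus A549) called 2 of the 8 tested genes, where 0.159% of all features were called. For ADGRB3 the difference of the log2 fold changes was 4.27, with an adjusted p of 0.0125. For TENM2 it was 6.98, a fitted value that depends on the prior count because all 3 A549 VGF libraries held 0 counts, with an adjusted p of 0.0288. The TENM2 call held in only 1 of the 12 fits without 1 library and in 5 of 9 other settings. Both genes were chosen with these values known.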

How the results depend on the processing

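With 23 alternative settings, the count of genes called in H1299 was 0 in each that gave a value, and the count between the lines was 5 to 6. Over all features these settings called 1 to 133 in H1299 and 11901 to 14486 between the lines. The A549 count of 3 became 6 with DESeq2 and 1 on log2 FPKM at either pseudocount, and was 2 to 3 with 1 library left out. Over all features the main fit called 144 in A549 and DESeq2 called 710. The log2 FPKM fits called 208 and 104 (pseudocounts 1 and 0.1), and the fits with 1 library left out called 52 to 130. For genes below its value a pseudocount strongly shrinks a fold change, so a call lost on log2 FPKM does not show an absent change. The count for the difference, 2, became 4 with DESeq2 and 1 with a minimum of 1 CPM in 3 libraries (TENM2 was not in that fit). It was 1 with limma voom, 0 and 1 on log2(FPKM + 1) and log2(FPKM + 0.1), and 1 to 2 with 1 library left out. Over all features the calls for the difference were 29 in the main fit, 315 with DESeq2 and 30 with the 1 CPM minimum. They were 19 with limma voom, 25 and 26 on the log2 FPKM scales, and 18 to 36 with 1 library left out. Deviations of same-numbered VGF and control libraries were only weakly correlated (-0.0883 to 0.0553). In H1299 these correlations were 0.0493, 0.0330 and 0.0553, against -0.0532 to 0.00782 for unlike numbers. In A549 the same-number values, -0.0883 to 0.024, lay among those of unlike numbers, -0.0608 to 0.104, or below them. With 3 libraries a group these values cannot decide whether the numbers pair the libraries. With a replicate block the count for the difference was 0 (ADGRB3 4.29, adjusted p = 0.0634, and TENM2 0.131), where 2 of all features were called. In that fit NRXN3 had an adjusted p of 0.0703 for the difference, and ADGRL2 in A549 had 0.0570.

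Signs turned only for effects that were not called. ADGRL1 in H1299 was -0.00205 with the 1 CPM minimum, -0.00104 with limma voom and -0.000956 with the replicate block. On log2 FPKM ADGRL2 in H1299 was -0.00891 and -0.00971, ADGRB2 in A549 was 0.0928 and 0.109, and C1QL4 between lines was 0.0459 and 0.0559. With 1 library left out, TENM2 between lines ran from -0.0874 to 0.341, TENM4 in A549 from -0.279 to 0.218, ADGRL1 in H1299 from -0.0739 to 0.0563, ADGRL2 in H1299 from -0.0271 to 0.0406, and ADGRB1 in H1299 from -0.0175 to 0.220. ADGRB2 ran from -0.134 to 0.00704 in A549, from -0.250 to 0.147 in H1299 and from -0.206 to 0.192 for the difference. TENM4 between lines missed the threshold on log2(FPKM + 1) (-0.116, adjusted p = 0.0539). These causes were not tested. The partners' alternatives were chosen after their values had been seen. Depth limits TENM1, TENM2, ADGRL3 and ADGRB3 in A549 with VGF, all at 20 counts or fewer a library there or throughout.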
